A study of Mus musculus with 20 samples.

Results

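The comparison described here sets the cerebellum of knock-in mice against that of wild-type mice at 4 weeks of age. It rests on 6 of the 20 arrays of the study, 3 per genotype, chosen by the short code in the sample titles, and on every probe set of the array that is not an array control. Of those 22626 probe sets, 13485 were bright enough to be tested. The remaining 14 arrays hold forebrain at 4 weeks, with 3 arrays per genotype, and both regions at a later age, with 2 arrays per genotype and region. Descriptions give that age as 11 weeks, used here, where the titles have 12. Total RNA was hybridised to single-colour Affymetrix oligonucleotide arrays. The labels call the mice knock-in or wild type. They do not name the knocked-in allele, the strain, the sex or the tissue donors. Whether each array holds RNA of its own mouse is not stated. The p-values therefore measure only how far these samples spread, and that spread may be technical.

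The cerebellar cortex is built around Purkinje cells, large inhibitory neurons that carry its only output, and around the far more numerous granule neurons whose parallel fibres excite them. Metabotropic glutamate receptors, calcium release from internal stores and voltage-gated calcium and potassium channels set how Purkinje cells fire. In the spinocerebellar ataxias caused by expanded polyglutamine tracts, such as those of ataxin-1 and ataxin-7, Purkinje cell genes are known to lose expression before the cells die. Insulin-like growth factor signalling, which Igfbp5 modulates by binding the growth factor, had been reported as altered in mouse models of those diseases, perhaps from these same arrays.

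All 6 arrays had been scaled to a 2% trimmed mean intensity of 2500.6 to 2500.7, and their median intensity was 1046 to 1180. The 3'/5' ratios, a sign of RNA quality, were 0.824 to 0.864 for GAPDH and 1.00 to 1.16 for actin. The defining markers of the region were bright on every array. The Purkinje cell gene Pcp2 read 47776 to 55244 and the granule cell gene Gabra6 read 35953 to 46884, while the forebrain genes Bcl11b and Neurod6 read at most 31.1 and 228. Xist, the RNA of the inactive X chromosome, was bright on all arrays of both genotypes (4683 to 9130 at 1 probe set), and the Y-linked Eif2s3y was dim on all of them (4.96 to 42.1). The Y-linked Kdm5d and Uty were dim on every array too. Kdm5d still read 132, 85.6 and 157 in knock-in and 32.1, 9.69 and 10.6 in wild type at 1 probe set. At another it read 284, 404 and 509 against 130, 246 and 165. Its remaining probe set and those of Uty overlapped between the genotypes. So did the Xist probe set above and another, while a dimmer Xist probe set read 1039, 1240 and 1289 against 1836, 1488 and 1751.

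One knock-in array stood apart. Over all tested probe sets, knock-in replicate 2 correlated at a mean of 0.9723 with the other knock-in arrays and at 0.9753 with the wild-type arrays. On the first principal component, which held 33.9% of the variance, it lay at 0.8, against 19.8 and 18.4 for knock-in replicates 1 and 3 and -17.0 to -10.6 for wild type. The same array had the highest summed level of brainstem and deep nuclei markers, 67054, against 43131 and 42254 on the other knock-in arrays and 35262 to 38894 on the wild-type arrays. Most of its sum came from the bright neurofilament genes Nefl, Nefm and Nefh, at 27618, 12954 and 8545. Of the Hox family homeobox genes in the brainstem list, 3 of the 6 found on the array read highest on knock-in replicate 2. Hoxa5 read 805 against at most 311 on the other arrays, Hoxb3 705 against at most 140 and Hoxb5 657 against at most 40.1. The others did not: Hoxa2 read lowest on it, 20.3 against 29.7 to 84.0, Hoxb4 read below both other knock-in arrays at each of its 2 probe sets, and Hoxb2 read 1087, below knock-in replicate 3. Counts below are therefore also given without knock-in replicate 2.

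Few probe sets passed the adjusted threshold at this age. At an adjusted p under 0.05, 3 of 13485 probe sets were called, 0.0222% of those tested, and all 3 were higher in knock-in cerebellum. None was lower, although 606 probe sets (4.49%) were lower and 1081 (8.02%) higher at an unadjusted p under 0.05 in the same limma model. The same model called 44 probe sets in cerebellum at 11 weeks (0.326%), 1057 in forebrain at 4 weeks (7.84%) and 151 in forebrain at 11 weeks (1.12%). Without single arrays the count at 4 weeks ran from 0 to 38: it was 2 without knock-in replicate 1, 38 without knock-in replicate 2, 2 without knock-in replicate 3, 15 without wild-type replicate 1 and 0 without wild-type replicate 3 (1205 at an unadjusted p under 0.05).

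Anxa2, which encodes annexin A2, a protein that binds membrane phospholipids when calcium rises, showed the firmest change. Its intensity was 2863, 2485 and 2442 on the knock-in arrays and 1148, 1223 and 1018 on the wild-type arrays. The lowest knock-in array was still far above the highest wild-type array, and each group was tight. The rise was 1.19 ± 0.15 log2 units (SE), a fold of 2.28 (adjusted p = 0.00459). The call was lost without wild-type replicate 3 (1.12, adjusted p = 0.0638). At 11 weeks the Anxa2 difference was 0.45 ± 0.18 (adjusted p = 0.247), and in forebrain at 4 weeks it was 0.49 ± 0.15 (adjusted p = 0.0478). The change of Anxa2 between the ages was 0.74 ± 0.23 and between the regions 0.70 ± 0.21, and neither passed (adjusted p = 0.829 and 0.311). A pair of further Anxa2 probe sets was too dim to test. S100a10, the usual binding partner of annexin A2, gave 0.14 ± 0.16 and -0.31 ± 0.34 at its 2 probe sets (adjusted p = 0.785 and 0.765). Of the other annexins, Anxa7 gave 0.29, Anxa6 0.40 and Anxa3 0.21, each with all knock-in arrays above all wild-type arrays at 1 probe set and none past the adjusted threshold. The other probe sets of Anxa7 gave -0.11 and -0.03 and that of Anxa6 -0.09, with the genotypes overlapping.

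Hoxb2, a homeobox transcription factor that patterns the embryonic hindbrain, rose from 416, 693 and 478 on the wild-type arrays to 909, 1087 and 1200 on the knock-in arrays. The groups did not overlap, though wild-type replicate 2 lay closest to the knock-in arrays and was the only wild-type array above the detection limit used here. The rise was 1.01 ± 0.15 (adjusted p = 0.0238). Raising the dim arrays to that limit, the 40th percentile of each array, Hoxb2 was at least 1.58-fold higher. It gave 0.60 ± 0.19 at 11 weeks (adjusted p = 0.143; at least 1.16-fold, with the wild-type arrays below the limit) and 0.43 ± 0.15 in forebrain (adjusted p = 0.0877). Since Hoxb2 belongs to the hindbrain, brainstem markers were read beside it. Of 26 such genes on the array 6 were bright enough to test, and their 7 probe sets, Hoxb2 among them, had a median difference of 0.35, all above 0. Nefh, a heavy neurofilament subunit, read 4536, 8545 and 5865 against 4236, 3990 and 4046, and Slc17a6, a vesicular glutamate transporter of brainstem and deep nuclei, read 1303, 2118 and 2035 against 1493, 1302 and 975. The genotypes were apart for Nefh and overlapped for Slc17a6. The summed level of the brainstem list did not overlap between the genotypes. Without knock-in replicate 2, which carried the highest sum, Hoxb2 still rose by 0.99 (adjusted p = 0.0396). Leaving out knock-in replicate 3 ended the call (0.92, adjusted p = 0.0745), and so did leaving out wild-type replicate 3 (0.96, adjusted p = 0.127). The part of the marker difference in the Hoxb2 rise was not tested.

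The third called probe set is annotated to Gm33301, a predicted gene. It read 1359, 1110 and 1178 on the knock-in arrays and 694, 626 and 670 on the wild-type arrays, without overlap and with the wild-type arrays close to the detection limit. The rise was 0.85 ± 0.13 (adjusted p = 0.0238). Its difference was above 0 in each of the other settings, at 0.72 ± 0.16 in cerebellum at 11 weeks (adjusted p = 0.0522), 0.64 ± 0.13 in forebrain at 4 weeks (adjusted p = 0.00899) and 0.78 ± 0.16 in forebrain at 11 weeks (adjusted p = 0.0262). Any of 4 arrays could end the call at 4 weeks in cerebellum when left out: knock-in replicate 1 (0.77, adjusted p = 0.118) or 3 (0.87, adjusted p = 0.0629), and wild-type replicate 2 (0.81, adjusted p = 0.0877) or 3 (0.86, adjusted p = 0.123). The calls of Hoxb2 and Gm33301 were also lost with quantile normalization (adjusted p = 0.0811 for each) and with cyclic loess (adjusted p = 0.089 and 0.0751).

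**Figure D1:**
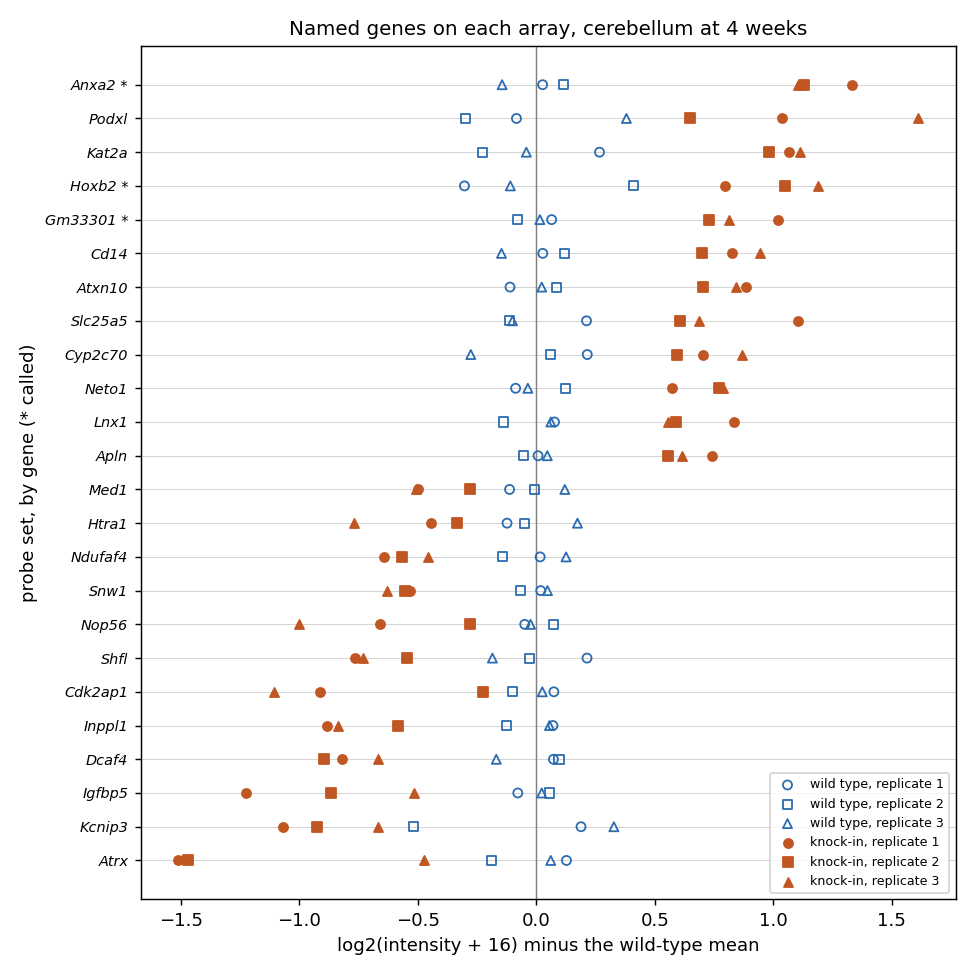
Each point is 1 array, placed by log2(intensity + 16) minus the mean of the 3 wild-type arrays, for the 24 named probe sets. Filled symbols are knock-in and open symbols wild type, and the 3 called genes carry an asterisk. The knock-in and wild-type points do not overlap for any of the 24, which were picked by p from this comparison, and knock-in replicate 2 (squares) often lies nearest to wild type.

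To describe the probe sets next in order, 9 more that were higher and 12 that were lower in knock-in cerebellum were taken by lowest p. Their adjusted p was 0.0605 to 0.103, so none was called, and that their genotypes do not overlap follows from how they were picked. Among the higher ones were genes of the cell surface and of signalling. Podxl, the sialomucin podocalyxin, gave 1.10 ± 0.20, with knock-in arrays at 1028, 782 and 1539 and wild-type arrays at 464, 398 and 646. Neto1, an auxiliary subunit of kainate receptors, gave 0.71 ± 0.13 (1065, 1225 and 1241 against 669, 776 and 694). The lowest knock-in array of Neto1 lay well clear of the highest wild-type array, and its forebrain difference was -0.13. Apln, the peptide ligand apelin, gave 0.64 ± 0.12 (4800, 4218 and 4389 against 2879, 2757 and 2958), and Cd14, a lipopolysaccharide co-receptor of macrophages and microglia, gave 0.82 ± 0.16 (1102, 1008 and 1194 against 626, 668 and 553). Lnx1, a ubiquitin ligase that targets Numb, gave 0.66 ± 0.12, and Cyp2c70, a cytochrome P450 known from bile acid metabolism in liver, read 884, 818 and 993 against 625, 560 and 440. Every wild-type array of Cyp2c70 was below the detection limit, so its level was at least 1.36-fold higher in knock-in cerebellum (0.72 ± 0.14 in the model).

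The remaining 3 of the higher set stood alone among the probe sets of their gene. Kat2a, a histone acetyltransferase of the SAGA complex that also holds ataxin-7, gave 1.05 ± 0.21 (2100, 1977 and 2170 against 1199, 848 and 965), but its other 2 probe sets gave 0.00 ± 0.11 and 0.01 ± 0.10. Atxn10, the gene of another inherited ataxia, gave 0.81 ± 0.14 (3330, 2932 and 3231 against 1662, 1909 and 1825), while its 3 other probe sets gave -0.09, 0.15 and -0.09. The genotypes overlapped at all 3 of these. Slc25a5, a mitochondrial ADP/ATP carrier, gave 0.80 ± 0.15 at 1 probe set and -0.28 to 0.24 at 7 others. Podxl and Lnx1 gave 0.03 ± 0.12 and -0.46 ± 0.16 at a second probe set. In all, 14 of the 24 named genes had another tested probe set. Of those 28 probe sets 18 shared the sign of the named one and 6 passed an unadjusted p under 0.05: 3 with the same sign (Atrx at 2 probe sets and Med1) and 3 with the opposite sign (Lnx1 -0.46, Nop56 0.31 and Slc25a5 -0.28).

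Among the lower ones was Igfbp5, which encodes a secreted protein that binds insulin-like growth factors. Its intensity was 4711, 6055 and 7702 on the knock-in arrays and 10453, 11461 and 11212 on the wild-type arrays. The 3 wild-type arrays lay close together, the knock-in arrays were spread over a wider range, and the highest knock-in array stayed below the lowest wild-type array. The difference was -0.87 ± 0.17 (adjusted p = 0.0744), and it ran from -1.04 to -0.69 over the alternatives tried without passing in any of them (adjusted p = 0.0578 to 0.231). At 11 weeks Igfbp5 read 3516 to 3816 in knock-in and 9250 to 9619 in wild-type cerebellum, a fall of 1.36 ± 0.21 that passed (adjusted p = 0.0121). In forebrain at 4 weeks it fell by 0.83 ± 0.17 (adjusted p = 0.0113). The change of Igfbp5 between the ages was 0.49 ± 0.28 (adjusted p = 0.925). The other probe set of this gene, also in cerebellum at 4 weeks, gave -0.68 ± 0.35 (1776, 1772 and 1935 against 1761, 3153 and 4569), with wild-type replicate 1 just below every knock-in array and the other wild-type arrays above them.

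Other members of the insulin-like growth factor list stood on both sides. Htra1, a secreted serine protease that cleaves binding proteins of this family, gave -0.52 ± 0.12 (5212, 5633 and 4162 against 6518, 6855 and 8012; adjusted p = 0.103), and a second probe set gave -0.21 ± 0.13. The adaptor Grb10, which restrains insulin and growth factor receptors, gave 0.36 ± 0.11, the insulin receptor Insr 0.45 ± 0.18 and the binding protein Igfbp4 0.20 to 0.47 at 5 probe sets, all of which overlapped. A second Grb10 probe set gave 0.08. Of the 21 tested genes of this list, with 37 probe sets, 0 were called in either direction; 5 probe sets were higher (13.5%, against 8.02% of all) and 2 lower (5.41%, against 4.49%) at an unadjusted p under 0.05, and the median difference was 0.01, that of all tested probe sets.

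Kcnip3, a calcium-binding partner of Kv4 potassium channels that also acts as a transcriptional repressor, read 2628, 2911 and 3474 in knock-in and 6311, 3865 and 6949 in wild-type cerebellum, a difference of -0.89 ± 0.19 (adjusted p = 0.0938; -1.15 and called without wild-type replicate 2, adjusted p = 0.019). It fell by 1.18 ± 0.23 at 11 weeks (adjusted p = 0.041). Its second probe set gave 0.06 ± 0.18 at 4 weeks. Kcnd2, the Kv4.2 channel subunit that such proteins bind, gave -0.50 ± 0.12 at 1 probe set (6271, 6588 and 5707 against 7831, 9568 and 8973) and -0.36 ± 0.11 at the other (10100, 11054 and 11776 against 14390, 13654 and 14146). At both of these all knock-in arrays lay below all wild-type arrays, and neither passed (adjusted p = 0.12 and 0.188). The remaining Kcnd2 probe set gave -0.16 and overlapped.

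The next 5 of the lower set encode Atrx, Snw1, Med1, Nop56 and Cdk2ap1. Atrx, a chromatin remodeller, gave -1.15 ± 0.25 (730, 753 and 1515 against 2307, 1850 and 2203; -1.49 and adjusted p = 0.0315 without knock-in replicate 3), while its 4 other probe sets ran from -0.72 to 0.15. Snw1, a spliceosome and transcription cofactor, gave -0.57 ± 0.12 (1422, 1400 and 1325 against 2089, 1968 and 2131), with both groups tight and apart. Med1, a Mediator subunit, gave -0.43 ± 0.10 and at a second probe set -0.75 ± 0.19 (1576, 2222 and 1836 against 3397, 2765 and 3266). Both Med1 probe sets had the genotypes apart, and the remaining one gave -0.09. Nop56, a core protein of box C/D small nucleolar ribonucleoproteins, gave -0.65 ± 0.15 but 0.31 ± 0.15 at its other probe set. Cdk2ap1, a protein that binds the cell cycle kinase Cdk2, gave -0.75 ± 0.17 (10970, 17637 and 9586 against 21731, 19255 and 21007), and -0.02 and -0.15 at its other probe sets. Knock-in replicate 2 was close to wild type for Cdk2ap1, which was called without it (-1.01, adjusted p = 0.0107).

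The last group of lower probe sets belonged to enzymes and regulators. Dcaf4, a substrate receptor of a cullin ubiquitin ligase, read 1102, 1044 and 1224 against 2057, 2091 and 1738, a difference of -0.79 ± 0.14 (adjusted p = 0.0605), with 0.00 ± 0.14 in forebrain. Inppl1, the lipid phosphatase SHIP2 of insulin signalling, gave -0.77 ± 0.15 (2337, 2874 and 2416 against 4537, 3956 and 4491) and -0.08 ± 0.19 at 11 weeks. Ndufaf4, an assembly factor of respiratory complex I, gave -0.55 ± 0.11 and, at a second probe set that overlapped, -0.17. Shfl, an interferon-induced inhibitor of viral translation, gave -0.68 ± 0.15. None of these 4 passed.

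Genes too dim to test carry no call. The single Atxn1 probe set read 69.5, 40.2 and 70.3 in knock-in and 65.2, 39.7 and 44.3 in wild-type cerebellum, below the limit on every array. The Atxn7 probe set read 75.4, 717 and 622 against 832, 851 and 809. All knock-in arrays lay below the wild-type arrays, but knock-in replicate 1 alone sat near the bottom of the scale. Neither probe set can serve to check the genotype, since the allele is not named. Tac1, the precursor of substance P, read 459, 1069 and 864 against 123, 302 and 153. Tpd52l1, a coiled-coil protein of vesicle traffic, read 77.6, 158 and 147 against 311, 369 and 425. Both would be called, Tac1 higher and Tpd52l1 lower, with a filter that asks only for 2 bright arrays among all 20 (adjusted p = 0.0325 and 0.00551). Every wild-type array of Tac1 lay below the limit, and so did knock-in replicate 1. With dim values raised to the limit, Tac1 was 1.34-fold higher at 4 weeks, which is no lower bound. At 11 weeks the order was the opposite, 64.7 to 96.1 in knock-in and 299 to 477 in wild type, with every array again dim. Every array of Tpd52l1 lay below it, so no fold is given.

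The size of the genotype difference moved with brightness. When the tested probe sets were split by mean level into 5 equal groups, the dimmest had, at a median intensity of 931, a median difference of 0.12 log2 units. It was 0.05, 0.01, -0.01 and -0.05 in the groups that followed, the last at a median intensity of 11333. Knock-in replicate 3 ran from 0.20 to -0.07 over the groups, knock-in replicate 1 from 0.12 to -0.04 and knock-in replicate 2 from 0.06 to -0.01. In the dimmest group 424 probe sets were higher and 79 lower at an unadjusted p under 0.05, and in the brightest 42 and 154. The same slope was present at 11 weeks (0.07 to -0.03) and in forebrain at 4 weeks (0.15 to -0.03). Cyclic loess normalization, which removes such a slope, left medians of -0.02 to -0.01 and turned the split of the unadjusted calls from 1081 higher and 606 lower to 761 and 787; quantile normalization gave 817 and 716. Whether this slope belongs to the tissue or to the arrays was not tested. The lists below are given beside the brightness of their members where it bears on them.

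**Figure D2:**
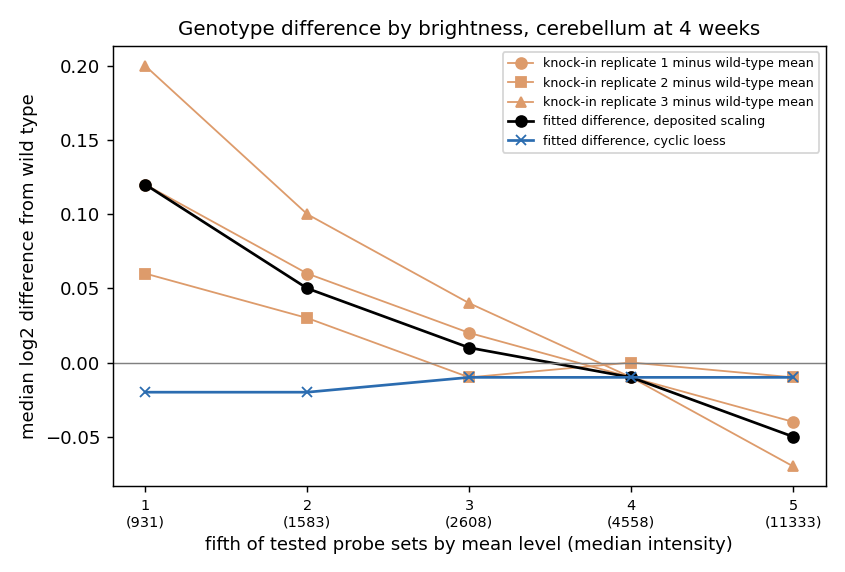
Median log2 difference from wild type (vertical axis) in 5 equal groups of tested probe sets ordered by mean level (horizontal axis, with each group's median intensity). Black points are the fitted genotype difference, which falls from 0.12 to -0.05, orange points are single knock-in arrays against the wild-type mean, and blue crosses are the fitted difference after cyclic loess normalization.

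Purkinje cell genes read slightly lower in knock-in cerebellum. Of 25 marker genes on the array 24 were tested with 41 probe sets, of which 34 had a difference below 0. The median was -0.16, against 0.01 over all tested probe sets and -0.05 in the brightest of the 5 groups, and it was -0.15 with cyclic loess, -0.12 with quantile normalization and -0.12 without knock-in replicate 2. None was called. At an unadjusted p under 0.05, 4 were lower (9.76%, against 4.49% of all tested probe sets) and 0 higher (against 8.02%). The list is bright (median intensity 10307), and in the brightest of the 5 groups 5.71% were lower and 1.56% higher. All knock-in arrays lay below all wild-type arrays at 9 of the 41, against 8.25% of all. Because the markers were chosen with results of these data known, these counts describe the list and are no test of it. The list also counts Cbln1, a gene expressed by granule neurons, at -0.33, -0.13 and -0.10, with the genotypes apart at -0.33 and -0.13. The list was not read without Cbln1. In bulk tissue, fewer cells of a type and less RNA per cell cannot be told apart.

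The 4 probe sets past an unadjusted p under 0.05 belonged to Cacna1g, Pcp4, Rgs8 and Atp2b2. Cacna1g, a T-type calcium channel, read 8995, 7980 and 9444 against 11640, 9673 and 11258 (-0.30 ± 0.12; adjusted p = 0.31). Pcp4, a calmodulin-binding protein, read 46611, 52032 and 48072 against 59733, 58202 and 61779 (-0.29 ± 0.13), and Rgs8, which shortens G protein signals, 29856, 30890 and 29570 against 33669, 36294 and 36125 (-0.23 ± 0.10). Atp2b2, the calcium pump of the plasma membrane, read 5370, 7092 and 6197 against 7543, 9731 and 8238 (-0.45 ± 0.21), with -0.17 and -0.08 at its other probe sets. All 4 had the genotypes apart by a narrow margin. Lhx1 (-0.58 ± 0.31) and Plcb4 (-0.44 ± 0.27) were apart too without passing, but their other tested probe sets gave -0.42 and 0.08 and overlapped. The genotypes overlapped for several markers that define the cell type. Pcp2 gave -0.30, -0.26 and -0.09 at its 3 probe sets, apart only at the dimmest of them. Its standard errors were 0.20, 0.38 and 0.43. The forebrain arrays share the spread in the model, and on those at 4 weeks Pcp2 read at most 579. Car8 gave -0.07 (95% confidence interval -0.43 to 0.29) and -0.06, Calb1 gave -0.07 (-0.26 to 0.13) and 0.06, and Slc1a6, a glutamate transporter of these cells, gave -0.15. The summed level of the list was 691335 to 732746 in knock-in and 778892 to 794470 in wild-type arrays, without overlap.

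Granule neuron genes had a median of -0.10 over 30 probe sets of 18 genes (-0.17 with cyclic loess and -0.04 without knock-in replicate 2). None was called. At an unadjusted p under 0.05, 5 were lower (16.7%, against 4.49% of all tested probe sets) and 0 higher (against 8.02%). This list is bright too (median intensity 9557), and the brightest of the 5 groups had 5.71% lower and 1.56% higher. Neurod1, a transcription factor of granule neuron differentiation, read 20519, 21266 and 19789 against 27845, 23903 and 32641 at 1 probe set (-0.44 ± 0.12) and 27553, 27856 and 28574 against 31023, 35995 and 36146 at the other (-0.29 ± 0.10). Chn2, a Rac regulator, read 8671, 10755 and 10990 against 13395, 13910 and 13553 (-0.43 ± 0.13) and gave -0.27 at its other probe set. Both genes were apart between the genotypes at each of these probe sets. The receptor subunit Gabra6 gave -0.17 and -0.13, Cbln3 0.05 and Zic1 0.00, with the genotypes overlapping and standard errors of 0.24 to 0.57. The forebrain arrays share the model, and on those at 4 weeks Gabra6 and Cbln3 read at most 438 and 530. The list summed to 390903 to 415582 in knock-in and 450508 to 454496 in wild-type arrays.

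Other cell types gave smaller or uneven differences. Oligodendrocyte genes had a median of 0.01 over 33 probe sets. Sox10, the transcription factor of that lineage, was higher at all 3 of its probe sets with no overlap at any of them (0.44, 0.45 and 0.30; adjusted p = 0.172, 0.173 and 0.34), while the myelin gene Mbp gave -0.18 to 0.12 at 8 probe sets. Microglia genes had a median of 0.12 over 14 probe sets: Csf1r, their growth factor receptor, gave 0.48, 0.18 and 0.17 and Laptm5 0.33, Ly86 gave -0.62, and the complement gene C1qb gave 0.48 at 1 probe set and -0.85 at another. Astrocyte and Bergmann glia genes had a median of -0.03 over 40 probe sets, with the gap junction gene Gja1 at 0.60 at 1 probe set and 0.00 to 0.24 at 5 others, and the glutamine synthetase Glul at -0.33 and -0.19. Choroid plexus genes had a median of -0.27 over 11 probe sets, and their sum was 115390 on knock-in replicate 1 against 207214 to 233554 on the other 5 arrays. Most of the sum on knock-in replicate 1 came from the bright gene Ttr, at 44156, 39451 and 19281. Blood genes had a median of -0.15 over 7 probe sets (3 above 0 and 4 below), with wild-type sums, over all 12 of their probe sets, of 17168 to 24685 on both sides of the knock-in sums of 20090 to 20512. The medians were -0.02 for cerebellar interneurons over 11 probe sets, 0.07 for endothelium and mural cells over 22, 0.03 for meninges and fibroblasts over 15 and 0.07 for forebrain neurons over 5. None of these lists had a called member.

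**Figure D3:**
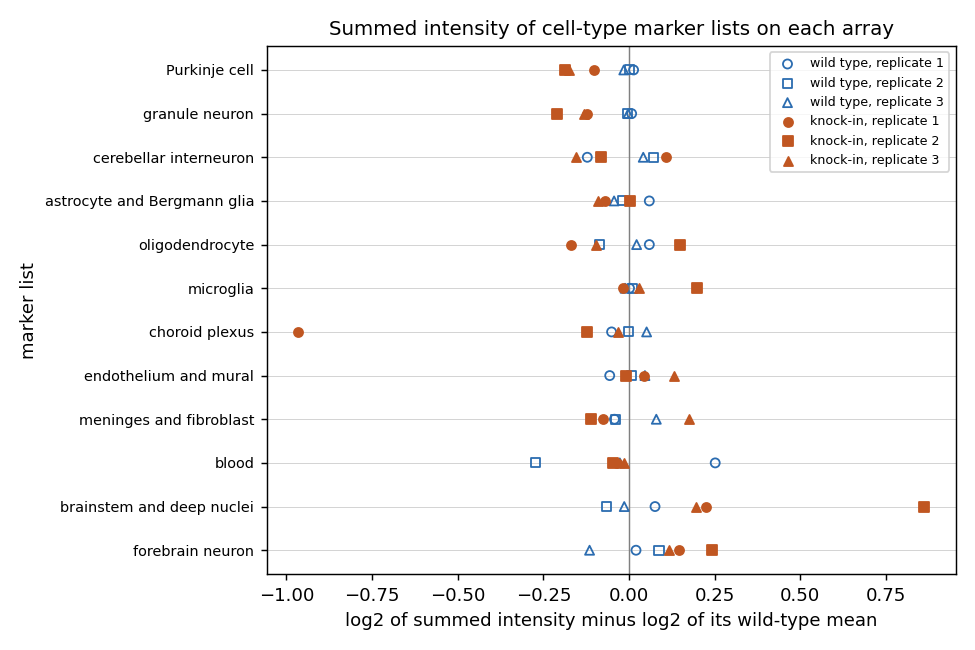
Summed intensity of 12 lists of cell-type marker genes on each array, as log2 against the wild-type mean (horizontal axis; 0 is the wild-type mean). Filled symbols are knock-in and open symbols wild type. The knock-in arrays lie below the wild-type arrays for Purkinje cell and granule neuron markers and above them for brainstem and forebrain neuron markers, with knock-in replicate 2 far above the rest for brainstem and knock-in replicate 1 far below the rest for choroid plexus.

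Of 36 gene lists, 24 for pathways and 12 for cell types, only the annexin and brainstem lists held a called probe set, 1 each, Anxa2 and Hoxb2. Among genes that published work on SCA1 mice gives as reduced in cerebellum, a list that holds Igfbp5 and several Purkinje cell genes and may rest on these same arrays, 26 of 32 probe sets had a difference below 0 (median -0.13). At an unadjusted p under 0.05, 4 were lower (12.5%, against 4.49% of all) and 0 higher (against 8.02%). The median intensity of this list was 10746, and the brightest of the 5 groups had 5.71% lower and 1.56% higher. Calcium pumps and exchangers had a median of -0.13, with 11 of 13 probe sets below 0. Atp2a2, the pump that refills the endoplasmic reticulum, read 42159, 38898 and 40580 against 43324, 47319 and 44865 at 1 probe set, apart by a narrow margin (-0.16 ± 0.10). Genes of metabotropic glutamate signalling and calcium release had a median of 0.02 and went both ways: the ryanodine receptor Ryr3 gave 0.44 and 0.54, the G protein subunit Gnaq 0.41 and its relative Gna11 -0.27 and 0.10. Among potassium channels, beside Kcnip3 and Kcnd2, the large-conductance channel Kcnma1 gave 0.48 (7980, 7314 and 9128 against 4858, 5894 and 6830), with knock-in arrays above wild type, and -0.10 at a second probe set. Among glutamate receptors, the AMPA receptor subunit Gria1 gave -0.44 (7465, 7808 and 7349 against 11304, 9633 and 9937) and -0.14, apart at both probe sets.

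Axon guidance genes held no called member and had a median of 0.12. At an unadjusted p under 0.05, 5 of 32 probe sets were higher (15.6%) and 0 lower, against 8.02% higher of all tested probe sets and 15.7% of the dimmest of the 5 groups by brightness. Efnb2, an ephrin ligand, read 1156, 1802 and 1608 against 704, 829 and 787 (0.94 ± 0.27; adjusted p = 0.175). Its receptor family member Epha4 gave 0.52, the semaphorin receptor Nrp2 0.53, the netrin Ntn1 0.54 and the semaphorin Sema4d 0.57, each with all knock-in arrays above all wild-type arrays. Second probe sets did not repeat this: Ntn1 gave -0.27, with all knock-in arrays below, Sema4d -0.07 and -0.03, and Efnb2 0.49 with overlap. These are dim genes, with a median intensity of 1157 for the list, where the median over all probe sets was itself above 0, and with cyclic loess the median of the list was 0.04. Neuropeptide genes had a median of 0.28 over 7 probe sets, 0.13 with cyclic loess, with Adcyap1, the precursor of PACAP, at 0.73 (2063, 1528 and 1336 against 976, 885 and 1047). Among targets of capicua, a repressor that binds ataxin-1, Etv5 gave 0.74 ± 0.18 (2567, 2616 and 3404 against 1343, 1776 and 2024; adjusted p = 0.12) and 0.40 at a second probe set that overlapped, and the list median was -0.02.

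The chaperone, proteasome, mitochondrial and ribosomal lists held no called member. Over 85 probe sets of heat shock and chaperone genes the median was 0.00. The co-chaperone Bag3 gave 0.86 ± 0.21 (2239, 1447 and 1862 against 1280, 939 and 816), and Stub1, the ubiquitin ligase CHIP, gave -0.50 and -0.35, lower on every knock-in array at both probe sets. Oxidative phosphorylation genes had a median of -0.06 over 94 probe sets with 12 lower (12.8%, against 8.25% of all) and 2 higher (2.13%, against 10.2%) without overlap, ribosomal protein genes -0.09 over 58 and proteasome subunits -0.02 over 45. These are bright lists, and the median of the brightest of the 5 groups was -0.05. Synaptic vesicle genes had a median of 0.02, with Pclo, the active zone protein piccolo, at -0.66 (4843, 3895 and 3778 against 6737, 6320 and 6593) and -0.26. Glial and stress reaction genes had a median of 0.09 over 21 probe sets, which ran from -0.44 to 0.50. At an unadjusted p under 0.05, 2 were higher (9.52%, against 8.02% of all) and 0 lower (against 4.49%). Its members Per1 and Fkbp5 gave 0.50 and 0.48, both above wild type on every knock-in array, with 0.18 and overlap at a second Fkbp5 probe set. Genes of antigen presentation had a median of 0.13, with H2-K1 at 0.84 and H2-D1 at 0.83, where wild-type replicate 1 lay close to the knock-in arrays (H2-D1 1330, 1283 and 1435 against 1233, 641 and 534). Genes of this family are alike in sequence, so a probe set can report several of them, and the other probe sets of both genes gave -0.12 to 0.30. No called member was found in the remaining pathway lists. Their medians were -0.03 for sodium channels over 18 probe sets, -0.05 for GABA receptors and synthesis over 16, -0.10 for voltage-gated calcium channels over 17, -0.04 for immediate early genes over 22, 0.07 for lysophospholipid and sphingosine receptors over 18, 0.05 for cholesterol synthesis over 30, and 0.00 for genes of polyglutamine diseases and ataxin-1 partners over 46.

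**Figure D4:**
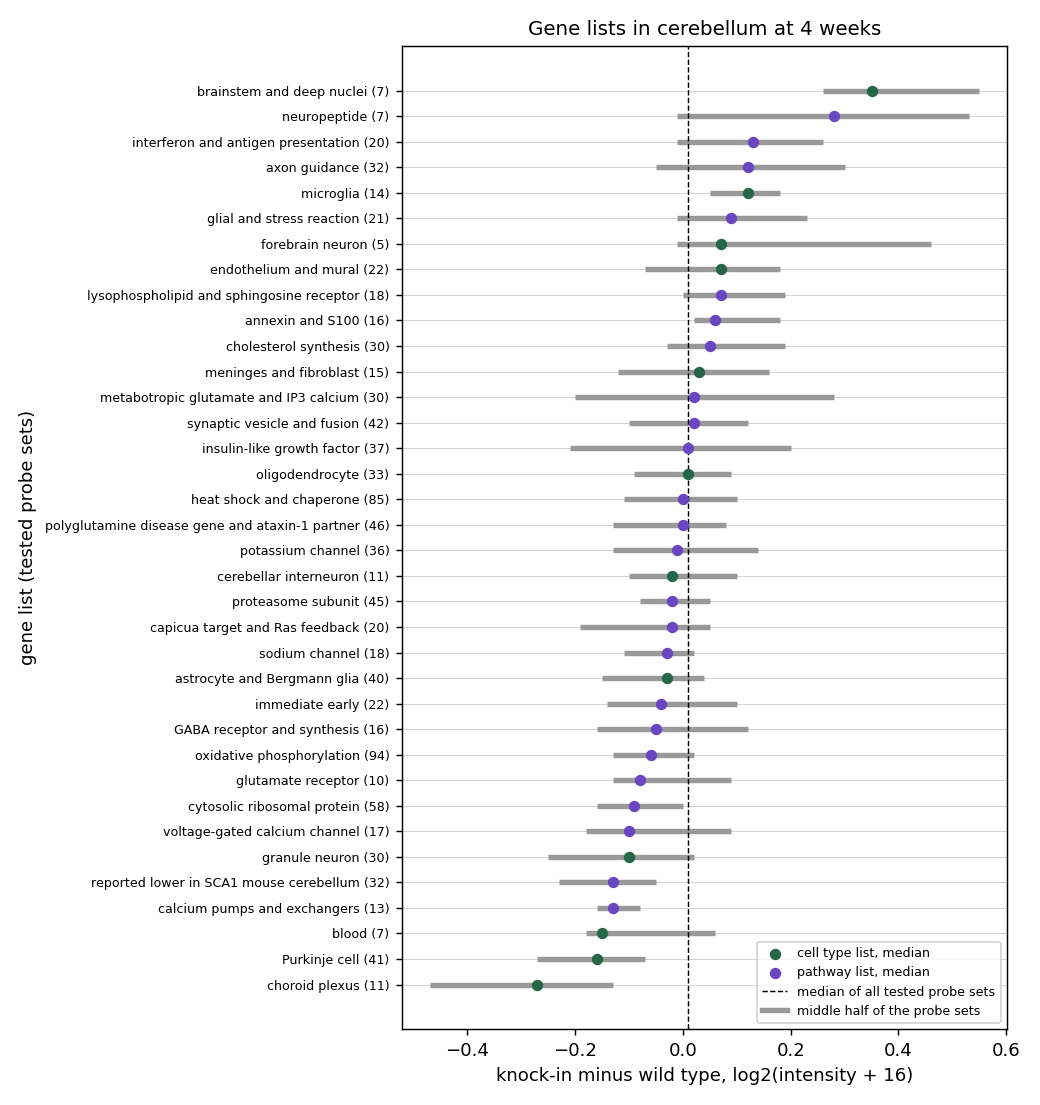
Median log2 difference (points) and the range from the first to the third quartile of the tested probe sets (bars) for each of 36 gene lists, with the number of probe sets in brackets; the dashed line is the median of all tested probe sets, 0.01. Medians run from -0.27 for choroid plexus to 0.35 for brainstem markers, and the Purkinje cell list lies at -0.16.

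The older mice gave arrays that share no sample with those at 4 weeks. Of 1369 probe sets with all knock-in arrays above all wild-type arrays at 4 weeks (10.2% of those tested), 1087 (79.4%) also had a difference above 0 at 11 weeks, against 51.4% of all tested. For 726 the 11-week arrays did not overlap in the same direction (53.0%, against 26.0% of all tested). Of 1113 with all knock-in arrays below (8.25%), 883 (79.3%) were below 0 at 11 weeks, against 48.6% of all, and 578 (51.9%) did not overlap in the same direction, against 23.8% of all. Ranges went apart in the opposite direction for 93 and 59. With cyclic loess the counts at 4 weeks were 1086 above and 1362 below, and with quantile normalization 1157 and 1199. Pearson's r between the differences at both ages, across 13485 probe sets that are not independent replicates, was 0.438. Differences that depend on brightness were present at both ages, and their part in these shares was not tested.

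Some probe sets differed in 1 direction in both regions and at both ages. The knock-in arrays lay above the wild-type arrays in each of the 4 settings for 196 probe sets (1.45% of those tested) and below them for 153 (1.13%). The regions may share mice, which the labels do not say, so the settings need not be independent. Retn, the hormone resistin, read 1400, 1104 and 1166 against 407, 525 and 477 in cerebellum at 4 weeks. Every wild-type array there and at 11 weeks was below the detection limit, so Retn was at least 1.85-fold higher at 4 weeks. At 11 weeks 1 knock-in array was dim too. With dim values raised to the limit, Retn was 1.33-fold higher at that age, which is no lower bound. Cxcl13, a B cell chemokine, gave 0.70 in cerebellum at 4 weeks, 1.44 there at 11 weeks, and 1.18 and 1.12 in forebrain at 4 and 11 weeks. In the same order Ssr1, a subunit of the translocon at the endoplasmic reticulum, gave 0.95, 0.67, 1.19 and 0.94. On the lower side stood Igfbp5, Kcnip3, Atrx, Htra1 and Cdk2ap1, and Lamp2, a lysosomal membrane protein, at -1.11, -1.03, -0.74 and -0.95. These examples beyond the named genes were chosen after their values were seen.

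Of the named genes, 12 of 12 higher and 11 of 12 lower ones kept their sign at 11 weeks. The exception was Nop56, at -0.65 and 0.26. Some of the kept differences lay within their standard error, as for Inppl1 (-0.08 ± 0.19) and Podxl (0.22 ± 0.25). Of all probe sets with the genotypes apart at 4 weeks, 79.4% of the higher and 79.3% of the lower ones kept their sign. Over all genes, the change of the genotype difference between the ages passed the test at 2 probe sets (0.0148%), Ptprk and 1 without a single gene. Ptprk, a receptor tyrosine phosphatase, read 528, 597 and 749 against 778, 1027 and 916 at 4 weeks, a difference of -0.53 ± 0.17 (adjusted p = 0.209) with every knock-in array below wild type. At 11 weeks it read 93.8 to 145 in knock-in and 631 to 760 in wild-type cerebellum, a fall in the model of 2.42 ± 0.21 (adjusted p = 2.55e-05) and a change between the ages of 1.88 ± 0.27 (adjusted p = 0.0181). No knock-in array of Ptprk reached the detection limit at either age. With dim values raised to that limit, the level was at least 1.23-fold lower at 4 weeks and at least 1.01-fold lower at 11 weeks, so the sizes in the model rest on values below the limit.

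**Figure D5:**
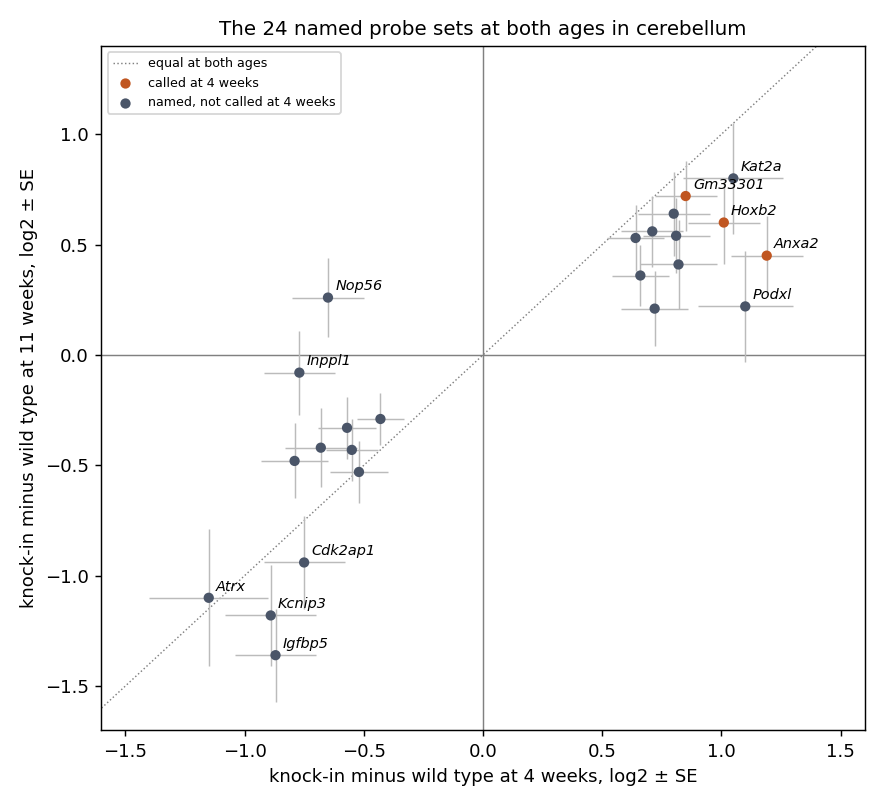
Knock-in minus wild type in cerebellum at 4 weeks (horizontal axis) and at 11 weeks (vertical axis), as log2 differences ± SE, for the 24 named probe sets; orange points are those called at 4 weeks and the dotted line marks equal differences. The points at 11 weeks of the 12 higher probe sets lie between 0.21 and 0.80, nearer to 0 than at 4 weeks, while Igfbp5, Kcnip3 and Cdk2ap1 lie farther from 0 at 11 weeks; the named probe sets were picked by their values at 4 weeks.

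Against forebrain at 4 weeks, the genotype difference itself differed at 14 probe sets (0.104%), 9 of them with the higher value in cerebellum. The labels do not say whether the regions came from the same mice, and the model treats their arrays as independent. At 8 of the 14 the cerebellar difference lay between -0.24 and 0.20. Gabrd, a GABA receptor subunit found outside synapses and strongly expressed by granule neurons, read 16261, 14902 and 15322 against 18254, 19569 and 15919 in cerebellum, overlapping, with a difference of -0.20 ± 0.12, while in forebrain it fell by 1.27 ± 0.12. Cerebellum minus forebrain came to 1.07 ± 0.16 (adjusted p = 0.0185). Ptpn4, a tyrosine phosphatase, gave -0.15 ± 0.22 in cerebellum. In forebrain it read 114 to 174 in knock-in, below the detection limit on every array. Wild type read 646 to 1046 there, with 2 of 3 arrays above the limit. With dim values raised to the limit the fall was 1.17-fold, which is no lower bound (model values -2.48 in forebrain and 2.33 between the regions, adjusted p = 0.00645). Larger differences in cerebellum, none of them called there, belonged to Neurod1 (-0.44, against a rise of 0.51 in forebrain; difference -0.96, adjusted p = 0.0299), Ttc19, a mitochondrial complex III factor (0.73 against -0.85), Stard8 (0.44 against -1.17), Mark1, a microtubule kinase (0.42 against -0.73), Siae, a sialic acid esterase (0.65 against -0.38), and Wwp1, a ubiquitin ligase (-0.28 against 0.56). Neurod1 read 1960 to 2483 in knock-in and 1501 to 1566 in wild-type forebrain, far below its level in cerebellum. The region of 7 of the 10 arrays grouped as forebrain is named inconsistently in the labels, among them the 3 knock-in arrays used here. On those 3 arrays the forebrain gene Bcl11b read 3472 to 4684 and the Purkinje cell gene Pcp2 315 to 579. Wild-type forebrain at 4 weeks read 4287 to 5794 and 50 to 423. Cerebellum at 4 weeks read at most 31.1 for Bcl11b and at least 47776 for Pcp2 at the same probe set.

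Without knock-in replicate 2, 38 probe sets were called, 25 higher and 13 lower, and all 3 of the original calls stayed among them. Those new at this setting included Klf3, a transcriptional repressor (0.89, adjusted p = 0.0193; 4510, 3147 and 4455 against 2654, 2151 and 2464), the kinase Wee1 that holds back mitosis (1.05; 3324, 1828 and 2949 against 1598, 1373 and 1544), the striatal regulator of G protein signalling Rgs9 (0.73; 2623, 1960 and 2199 against 1428, 1584 and 1319) and, on the lower side, Dock9, a Cdc42 activator (-1.07; 4671, 9505 and 5943 against 11135, 9979 and 12274), and Stub1 (-0.64). In Klf3, Wee1 and Rgs9 the left-out array was the lowest of the 3 but above wild type, and in Dock9 it was just below the wild-type range. Since this array was left out after its values were seen to stand apart, these calls describe the other 5 arrays. Without wild-type replicate 1 the 15 calls, all higher, included Cav1, the scaffold of caveolae (1.16, adjusted p = 0.00141), and H2-D1 (1.18, adjusted p = 0.0362).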

How the data were processed

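The values were single-colour array intensities, 1 per probe set and on a linear scale, as deposited by the authors in the series' value table. No header or label used here names the software, summary method or genome build; each array's trimmed mean shows that the arrays had been scaled to a common level. Intensities were analysed as log2(intensity + 16). A probe set was tested where its mean over the 6 arrays exceeded the mean of the arrays' 40th percentiles (632 to 775 in intensity, called the detection limit), without regard to genotype. This left 13485 of 22626 probe sets (64 controls left out). limma 3.58.1 in R 4.3.3 fitted 8 group means to all 20 arrays, which share 1 estimate of the spread, with two-sided tests and Benjamini-Hochberg adjustment over all tested probe sets; a probe set was called at an adjusted p under 0.05. The script was tested on simulated data. An exact permutation test of 3 against 3 arrays cannot go below 0.1. The platform annotation named 1 gene at 20380 probe sets, more than 1 at 691 and no gene at 1555, and 20351 of the first kind matched RefSeq GRCm38.p6 symbols. Named genes were the called ones, filled by lowest p to 12 in each direction, plus Igfbp5, Atxn1 and Atxn7. The comparison, the 36 gene lists and the markers were chosen with earlier results of these data known. Alternatives covered offsets, filters, normalization, the arrays fitted, probe sets per gene, an intensity trend, the replicate block and leaving out each array. The number of arrays limits the precision; the median standard error was 0.15.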

Additional observations from a re-analysis of the deposited data

Results flagged for a closer look

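The genotype difference itself changed between the ages or between the regions at 16 probe sets, by an interaction contrast in limma at an adjusted p under 0.05. Between 4 and 11 weeks in cerebellum these were Ptprk (4 minus 11 weeks 1.88) and a probe set with no single gene (-2.41; -0.58 at 4 weeks and 1.83 at 11 weeks). The latter read 2287, 2645 and 2990 in knock-in and 5101, 2600 and 4563 in wild-type cerebellum at 4 weeks, overlapping through wild-type replicate 2.

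Between cerebellum and forebrain at 4 weeks, the difference was higher in cerebellum for Ptpn4 (2.33), Stard8 (1.61), Ttc19 (1.57), 0610040J01Rik (1.47), Mark1 (1.15), Gabrd (1.07), Siae (1.03), 1110008P14Rik (1.03) and Sema4a (0.93). It was lower in cerebellum for a probe set with no single gene (-1.38), Ppp4c (-1.10), Neurod1 (-0.96), Dpf2 (-0.88) and Wwp1 (-0.84). Knock-in forebrain arrays of Ptpn4 and knock-in cerebellar arrays of Ptprk were all below the detection limit, so those sizes rest on dim values, as does that of 0610040J01Rik, which was dim on all forebrain arrays, and that of the probe set with no single gene, dim on the wild-type forebrain arrays. Every forebrain difference among these 14 but that of Siae was called in forebrain itself, and none was called in cerebellum. The labels of the forebrain knock-in arrays name their region inconsistently, though their Bcl11b and Pcp2 levels at 4 weeks were far from those of cerebellum.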

How the results depend on the processing

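No named gene changed direction in 414 values over the alternatives: 377 stayed on the same side of the threshold, 21 lost a call and 16 gained one, 8 of these without knock-in replicate 2. The 3 calls at 4 weeks in cerebellum became 7 with no filter, 8 with at least 2 of 20 arrays above the limit, 5 with 1 probe set per gene, and 1 with quantile normalization, cyclic loess, cerebellar arrays only or an intensity trend. With only the arrays of the compared groups, limma called 0. Leaving out single arrays gave 0 to 38. Probe sets with knock-in above wild type (1369) became 2734 with no filter, 711 above the 60th percentile and 851 with 1 probe set per gene, and 1809 to 2635 without single arrays; those below (1113) became 665 per gene and 1594 to 1997.

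The 2 age differences became 4 with at least 2 of 20 arrays, 1 above the 60th percentile and 0 with cerebellar arrays only, compared groups only or 1 probe set per gene, and 0 to 5 without single arrays. The 14 region differences became 4 with no filter and 6 above the 60th percentile, and 2 to 18 without single arrays. The 44 calls at 11 weeks became 26 with no filter, 104 above the 60th percentile, 112 with the trend, 3 with cerebellar arrays and 0 with compared groups only, and 1 to 63 without single arrays. Forebrain calls became 206 of 1057 at 4 weeks and 0 of 151 at 11 weeks with compared groups only, and 51 at 11 weeks with no filter; without single arrays they were 465 to 994 and 8 to 82. What moved these counts was not tested. Several of these fits held fewer arrays or probe sets.

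Arrays of the same number did not deviate together (r of -0.05, -0.11 and -0.01). With 3 arrays per group this cannot exclude that equal numbers share a source, and the labels do not say what the numbers stand for. With the replicate block the calls at 4 weeks were 2, Anxa2 and, gained, Podxl (adjusted p = 0.0233 for both), while those of Hoxb2 and Gm33301 were lost (adjusted p = 0.0668 and 0.106). The other counts were 7 at 11 weeks, 680 and 40 in forebrain, 1 between ages and 0 between regions, so all 14 region differences were lost. Dim probe sets, below the 40th percentile, carry no call here, and 3 arrays per group limit what can be told from the spread.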
